A study of Homo sapiens with 12 samples.

Results

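The genes described here are 50 human genes of the lysosome and of autophagy, listed by symbol: 15 hydrolases, 7 membrane, cofactor and lipid-handling proteins, 6 proton pump subunits, 3 transcription factors of the MiT/TFE family and 19 genes that build the autophagosome. Of 19775 genes read by a probe set that names 1 gene, 49 are on the list. GLB1, the lysosomal beta-galactosidase, shares its probe set with TMPPE and was not analysed here. A gene was tested where the mean of at least 1 group reached a signal of 13, the median of the table. That left 13165 genes, of which 48 are members. TFEB was under the filter in every group, CTSS passed it in 3 of the 4 groups, and the other 47 members passed it in all 4.

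The cells were PC9 and HCC827, human lung adenocarcinoma cell lines with activating mutations of EGFR, and their messenger RNA was read on 12 one-colour Affymetrix arrays, 3 for each of 4 groups. Treatment lasted 8 days, either with the solvent DMSO or with erlotinib at 2 micromolar, which blocks the EGFR kinase. All 4 groups grew in RPMI with 10% FBS that was renewed with the agent after 4 days. Per the treatment protocol fewer cells were plated, in 10 cm dishes, for DMSO than for erlotinib, in 150 cm flasks, so cell number and vessel differ together with the drug and cannot be told apart from it. In the series description, flasks are named for every group. The labels do not say whether the 3 arrays of a group are separate cultures, and a p-value here measures the spread between these samples alone. In RNA of whole cultures, fewer cells of a kind and less RNA per cell cannot be told apart.

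Lysosomes are acidic organelles in which hydrolases digest proteins, sugars and lipids. A proton pump, the V-ATPase, keeps them acidic, and membrane proteins such as LAMP1 and LAMP2 line them. In autophagy the ULK1 kinase complex and the beclin lipid kinase complex start a membrane cup, lipid transfer proteins enlarge it, the ATG8 family is conjugated to it with cargo receptors such as SQSTM1, and the closed autophagosome fuses with the lysosome. The transcription factors TFEB, TFE3 and MITF bind the letters TCACGTG near many of these genes, and are known to be held in the cytoplasm when mTORC1 on the lysosome is active.

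The labels and the values were compared first. DUSP6, a phosphatase gene switched on by ERK signalling downstream of EGFR, averaged 1358 in PC9 DMSO and 68.1 in PC9 erlotinib, and 1252 and 366 in HCC827. All 8 epithelial markers on a list of 8 passed the filter, with group means from 191 to 3671. Of 9 leukocyte markers measured, 2 passed (CSF1R and ITGAM), of 6 fibroblast markers 2 (COL1A1 and LUM) and of 5 endothelial markers 2 (PECAM1 and CDH5). Within groups, r between arrays across genes was at least 0.993. The actin 3'/5' signal ratio, which rises when RNA is degraded or copied short, was 3.03 ± 0.598 (SD, n = 3) in HCC827 erlotinib, with 2.45, 2.99 and 3.64 on its arrays, and 2.17 ± 0.0563 in HCC827 DMSO. In PC9 it was 2.22 ± 0.271 in erlotinib and 2.18 ± 0.152 in DMSO. All HCC827 changes below carry this difference between the groups, and its part in them was tested only as a covariate and by leaving out erlotinib replicates 2 and 3.

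After 8 days of erlotinib most lysosome and autophagy genes had higher signals in both lines. In PC9, 32 of the 48 members were higher and 6 lower at an adjusted p under 0.05 (limma, Benjamini-Hochberg over all 13165 genes), and in HCC827, 31 were higher and 5 lower. Among all genes tested, 64.7% passed in PC9 (36.4% higher and 28.3% lower) and 51.8% in HCC827 (32.3% higher and 19.5% lower). The members passed at 79.2% in PC9 (66.7% higher, 12.5% lower) and 75.0% in HCC827 (64.6% higher, 10.4% lower). The median log2 change of the members was 0.43 in PC9 and 0.34 in HCC827, against 0.05 and 0.07 for all genes. Changes are erlotinib minus DMSO of log2(signal + 8), each with its standard error from the fit over the 12 arrays; adding 8 understates the change of dim genes.

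The 2 lines mostly shared the direction. 26 members were higher in both, where 20.3% of all genes were. CTSL and ATG16L1, 2 members, were lower in both lines, as were 11.6% of all genes. ATG7, ATP6V1A and UVRAG passed in opposite directions, as 5.39% of all genes did. The rest passed in PC9 only or in HCC827 only, apart from NPC1, NPC2, BECN1, ATG5 and ATG12, which passed in neither. The 3 erlotinib arrays lay above all 3 DMSO arrays for 30 members in PC9 (36.6% of all genes) and for 31 in HCC827 (37.7%). They lay below for 6 in PC9 (28.4%) and for 7 in HCC827 (24.5%). Centring each array on its own median moved the median of all genes by -0.15 in PC9 and by -0.07 in HCC827, and PC9 then had 24 members higher and 9 lower, with 27.1% and 38.0% of all genes. In HCC827, 23 members passed (20 higher, 3 lower) with the actin ratio as a covariate. Calls were lost among all genes too: 2558 were higher and 1594 lower with the covariate, against 4247 and 2571 without it. The calls lost both with the covariate and without erlotinib replicates 2 and 3 were those of CTSB, CTSD, MCOLN1, ATP6V0A1, ATP6AP1, TFE3, ATG13, ATG2A, ATG9A, UVRAG, ATG4A and ATG7. That of GABARAPL2 was lost with the covariate alone.

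**Figure D1:**
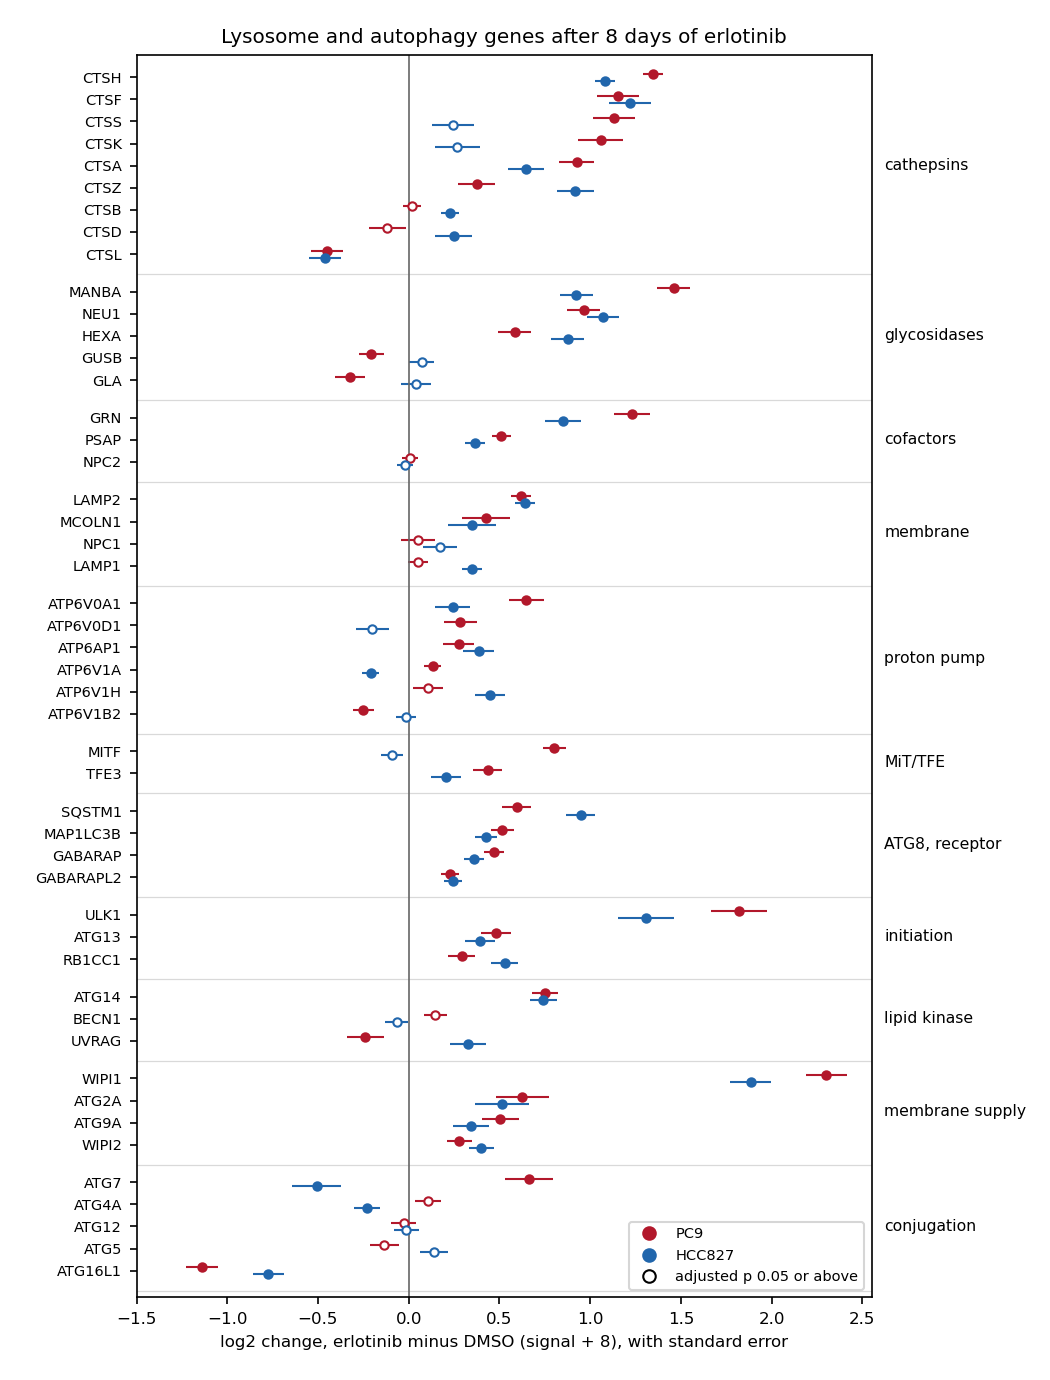
Log2 change of the 48 tested members (x axis, erlotinib minus DMSO of log2(signal + 8)), grouped by role; points are PC9 (red) or HCC827 (blue), bars are standard errors, and open points have an adjusted p of 0.05 or above. Most points lie to the right of 0; WIPI1 and ULK1 lie farthest right and ATG16L1 farthest left in both lines.

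The MiT/TFE factors themselves came at very different signals. TFEB was near the background of the arrays, with 4.0, 7.2 and 1.7 in PC9 DMSO, 6.4, 10.0 and 7.3 in PC9 erlotinib, 0.9, 4.7 and 2.2 in HCC827 DMSO and 3.4, 4.5 and 3.6 in HCC827 erlotinib. These low signals were not tested, and the arrays of the treatments overlapped in both lines. MITF read 204, 222 and 206 in DMSO and 378, 352 and 392 in erlotinib in PC9; in HCC827 it read 1168, 1168 and 1145 in DMSO and 1067, 1085 and 1112 in erlotinib. Its PC9 arrays were all higher with erlotinib, and its HCC827 arrays were already far above them in DMSO. MITF rose by 0.80 ± 0.06 in PC9 (limma, adjusted p = 8.45e-09), and its change in HCC827 was -0.09 ± 0.06 (adjusted p = 0.221). A second MITF probe set gave 0.91 in PC9 and -0.47 in HCC827, both past the threshold.

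TFE3 read 478, 497 and 505 in DMSO and 755, 599 and 664 in erlotinib in PC9, where no array of one treatment reached the other. In HCC827 its signals were 550.2, 549 and 551 in DMSO and 576, 669.8 and 665 in erlotinib, again with every erlotinib array above every DMSO array. The rise was 0.43 ± 0.08 in PC9 (limma, adjusted p = 0.000164) and 0.21 ± 0.08 in HCC827 (adjusted p = 0.0414). The HCC827 call was lost under several settings, among them median centring (0.13), the actin covariate, which turned it to -0.01, and leaving out single arrays: it was lost when any of PC9 DMSO replicate 3, HCC827 DMSO replicate 1, 2 or 3 or HCC827 erlotinib replicate 2 or 3 was left out alone (log2 0.17 to 0.21). Of its 4 probe sets 1 more was above the filter, and that one rose in both lines, by 0.53 and 0.77.

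The letters that these factors bind were looked for in the members' promoters. RefSeq promoters of build GRCh38.p14, each of 300 bases with 250 before the start site and 50 from it on, were at hand for 38 of the 50 members. TCACGTG, on either strand, was in the promoters of 8 of these 38 genes (21.1%), and in 4.49% of the 27305 genes of the promoter table and 7.19% of the 10677 tested genes with a promoter. Counted by promoters of that length, it was in 8 of 47 (17.0%) against 3.71% of 35116. The shorter CACGTG, which every TCACGTG holds, was in the same number of members and in 8.77% of all genes. By group, 4 of 10 hydrolases held TCACGTG, 2 of 5 membrane and cofactor genes, 1 of 3 proton pump subunits, 1 of 17 autophagosome genes and 0 of 3 MiT/TFE factors. It was in 5 of the 21 members with a promoter that rose in both lines, and in 3 of the other 15 tested. The stretches around the matches are printed because the rises of NEU1, CTSF, CTSA, ATG14 and MCOLN1, and the smaller or one-sided changes of LAMP1, CTSD and ATP6V0D1, are described next. Each is read 5' to 3' along the gene, with up to 20 bases on either side and ending before the start site except where a match runs over it, and TCACGTG or its reverse complement CACGTGA is in capitals.
NEU1, chr6:31862922-31862968, minus strand: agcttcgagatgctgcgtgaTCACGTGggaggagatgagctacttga
CTSA, chr20:45891272-45891334, plus strand: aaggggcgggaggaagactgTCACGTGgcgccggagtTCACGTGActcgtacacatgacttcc
CTSF, chr11:66568703-66568749, minus strand: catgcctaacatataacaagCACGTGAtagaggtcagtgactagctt
CTSD, chr11:1763948-1763994, minus strand: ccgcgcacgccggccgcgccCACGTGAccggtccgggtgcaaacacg
MCOLN1, chr19:7522562-7522623, plus strand: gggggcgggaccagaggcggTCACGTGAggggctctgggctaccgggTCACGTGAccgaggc
LAMP1, chr13:113297026-113297244, plus strand: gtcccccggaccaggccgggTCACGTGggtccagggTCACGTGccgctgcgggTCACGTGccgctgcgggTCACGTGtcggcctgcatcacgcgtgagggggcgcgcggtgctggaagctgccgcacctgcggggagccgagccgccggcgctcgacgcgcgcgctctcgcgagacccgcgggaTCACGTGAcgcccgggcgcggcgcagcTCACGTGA
ATP6V0D1, chr16:67481190-67481237, minus strand: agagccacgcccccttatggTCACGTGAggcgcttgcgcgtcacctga
ATG14, chr14:55411831-55411871, minus strand: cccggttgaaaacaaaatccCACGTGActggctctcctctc
LAMP1 held 6 matches, of which the first begins 193 bases and the last 2 bases before its start site, so that the last runs over it, and CTSA and MCOLN1 held 2 each. Matches that read the same on both strands numbered 2 in LAMP1, 2 in MCOLN1, 1 in CTSA and 1 in ATP6V0D1. WIPI1, ULK1, CTSH and SQSTM1, which had larger or similar changes, hold neither run of letters in their promoters. A match is a run of letters, and binding was not measured.

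Most hydrolases, the enzymes that do the digesting, had higher signals. Of 14 tested, 9 rose and 3 fell in PC9, with a median log2 change of 0.75 (0.52 with CTSS at the lower bound given below), and 9 rose and 1 fell in HCC827, with a median of 0.46. The share called was 85.7% in PC9 and 71.4% in HCC827, against 64.7% and 51.8% of all genes. Among the 9 cathepsins, lysosomal proteases counted here with the protective protein CTSA, 6 rose and 1 fell in each line. Of the 5 glycosidases, which strip sugars, 3 rose in both lines, and GLA and GUSB fell in PC9.

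CTSH, a cysteine protease that trims protein ends, read 642, 667 and 699.8 in DMSO and 1780.3, 1699.9 and 1671 in erlotinib in PC9. In HCC827 the signals were 436, 458 and 429.8 in DMSO and 917, 954 and 952 in erlotinib. Erlotinib arrays stood clear above DMSO arrays in each line. The rise was 1.35 ± 0.06 in PC9 (limma, adjusted p = 4.3e-12) and 1.08 ± 0.06 in HCC827 (adjusted p = 1.78e-10).

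CTSF, another cysteine protease, read 20.2, 24.7 and 23.8 in DMSO and 57.2, 63.3 and 61.2 in erlotinib in PC9. HCC827 gave 35.8, 48.7 and 48.8 in DMSO and 106, 118 and 116 in erlotinib. The treatments did not overlap in either line, and the rise was 1.15 ± 0.12 and 1.22 ± 0.12 (limma, adjusted p = 2.4e-07 and 2.61e-07). CTSA, which protects the sialidase NEU1 and beta-galactosidase in a complex, read 704, 758 and 648 in DMSO and 1229, 1509 and 1298 in erlotinib in PC9. Its HCC827 signals were 932, 1009 and 895 in DMSO and 1246, 1659 and 1572 in erlotinib. Again all erlotinib arrays were the higher ones, and CTSA rose by 0.92 ± 0.10 and 0.65 ± 0.10 (limma, adjusted p = 4.5e-07 and 4.43e-05).

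CTSZ, a carboxypeptidase, read 466, 338 and 389 in DMSO and 459, 542 and 544 in erlotinib in PC9, where replicate 1 of DMSO exceeded replicate 1 of erlotinib. In HCC827 it read 141, 156 and 147 in DMSO and 272, 299 and 287 in erlotinib, with no overlap. It rose by 0.38 ± 0.10 in PC9 (limma, adjusted p = 0.00408) and by 0.92 ± 0.10 in HCC827 (adjusted p = 1.54e-06). With median centring the PC9 value was 0.23 and no longer passed.

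CTSK and CTSS are cathepsins best known from osteoclasts and from antigen-presenting cells, and in PC9 both rose from near the background. CTSK read 17.2, 19.9 and 18.1 in DMSO and 50.1, 48.5 and 42.4 in erlotinib in PC9; in HCC827 it read 17.2, 19.1 and 17.5 in DMSO and 18.4, 26.2 and 25.7 in erlotinib. The treatments were apart in PC9 and overlapped in HCC827. Its change was 1.06 ± 0.12 in PC9 (limma, adjusted p = 1.16e-06) and 0.27 ± 0.12 in HCC827 (adjusted p = 0.0769). The HCC827 value passed without HCC827 erlotinib replicate 1 (0.39) and without the intensity trend (0.27). It also passed in the fit of the mean of all probe sets, but CTSK has 1 probe set, so its signals there were the same. CTSS read 4.8, 3.7 and 7.4 in DMSO and 23.9, 17.1 and 22.2 in erlotinib in PC9; in HCC827 it read 265, 266 and 250.5 in DMSO and 312, 313 and 302 in erlotinib. Erlotinib arrays were higher in both lines, but HCC827 was far above PC9 with either treatment. CTSS rose by 1.13 ± 0.12 in PC9 (limma, adjusted p = 2.88e-07). All 3 of its PC9 DMSO signals were under the filter, and with them set to the filter value of 13 the rise was at least 0.46. Its HCC827 change was 0.24 ± 0.12 (adjusted p = 0.0912). That HCC827 value passed with 32 added in place of 8 (0.22) and in a fit of the HCC827 arrays alone (0.24).

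Some markers of other cell types also changed with erlotinib, some up and some down. The summed signal of the 9 leukocyte markers ran from 22.5 to 36.4 on the PC9 DMSO arrays and from 96.9 to 106 on the PC9 erlotinib arrays. In HCC827 it ran from 35.8 to 43.9 and from 51.7 to 58.3. ITGAM, an integrin of myeloid cells, averaged 8.30 and 64.1 in PC9, and CSF1R, the receptor for macrophage growth factor, 1.10 and 20.8. PTPRC, present on all leukocytes, was under the filter, at 3.77 in PC9 DMSO and 1.93 in PC9 erlotinib, as were CD14, CD163, AIF1, TYROBP, CD3E and MS4A1. The sum of the 6 fibroblast markers ran from 79.4 to 107 and from 384 to 467 in PC9, and from 156 to 183 and from 624 to 690.4 in HCC827. Most of it came from COL1A1, a collagen, at means of 71.0 and 292 in PC9 and 150.2 and 460.3 in HCC827, and from LUM, the proteoglycan lumican, at 1.40 and 104 in PC9 and 6.0 and 183 in HCC827. The sum of the 5 endothelial markers ran from 895 to 989 and from 654 to 706 in PC9, where PECAM1 averaged 835 and 506 and CDH5 105 and 178, and stayed between 12.1 and 19.7 in HCC827. No group mean of a marker was 0, and the part of other cells in the CTSK and CTSS changes was not tested.

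The other cathepsins had small changes or fell. CTSL, an abundant cysteine protease, fell by 0.45 ± 0.09 in PC9 and by 0.46 ± 0.09 in HCC827 on the log2 scale (limma, adjusted p = 0.000303 and 0.00037), from 959.5, 812 and 846 to 629, 640.0 and 636 in PC9. All erlotinib arrays were below all DMSO arrays in both lines. CTSB, also a cysteine protease, rose by 0.23 ± 0.05 in HCC827, and that call was lost with the actin covariate (0.16) and with median centring (0.15). Its PC9 change was 0.02 ± 0.05 on the brightest probe set, and passed as higher with the mean of all probe sets (0.14). CTSD, the aspartic protease of the lysosome, was at -0.12 ± 0.10 in PC9, where it passed as lower without PC9 DMSO replicate 2 (-0.23) and with median centring (-0.27). In HCC827 it was at 0.25 ± 0.10 (limma, adjusted p = 0.0495), at the edge of the threshold, and the call was lost when any single array other than PC9 DMSO replicate 1 or 2, HCC827 DMSO replicate 2 or HCC827 erlotinib replicate 1 was left out (log2 0.19 to 0.25). Among other settings it was lost with the actin covariate (0.12), median centring (0.17) and quantile normalization (0.19).

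MANBA, the beta-mannosidase, read 213, 197 and 186 in DMSO and 577, 566 and 538 in erlotinib in PC9. HCC827 read 191, 225 and 169 in DMSO and 364, 369 and 389.5 in erlotinib. There was a clear gap between treatments in each line, and MANBA rose by 1.46 ± 0.09 and 0.92 ± 0.09 (limma, adjusted p = 7.41e-10 and 3.98e-07). NEU1, the sialidase that CTSA protects, read 152, 127 and 147 in DMSO and 277, 304 and 272 in erlotinib in PC9. In HCC827 NEU1 was at 156, 142 and 147 in DMSO and 295, 319.6 and 346 in erlotinib. Its DMSO and erlotinib arrays were much alike in the 2 lines, and the rise was 0.96 ± 0.09 and 1.07 ± 0.09 (limma, adjusted p = 8.11e-08 and 5.03e-08).

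HEXA, a subunit of beta-hexosaminidase whose loss causes Tay-Sachs disease, read 386, 352 and 452 in DMSO and 586, 585 and 617 in erlotinib in PC9. Its HCC827 arrays read 263, 237 and 219 in DMSO and 446, 479 and 412 in erlotinib. All erlotinib arrays were higher than all DMSO arrays of their line, and HEXA rose by 0.58 ± 0.09 and 0.88 ± 0.09 (limma, adjusted p = 3.37e-05 and 8.02e-07). GLA, the alpha-galactosidase lost in Fabry disease, fell by 0.32 ± 0.08 in PC9 and was at 0.04 ± 0.08 in HCC827. GUSB, the beta-glucuronidase, fell by 0.21 ± 0.07 in PC9, a call lost without PC9 erlotinib replicate 3 (-0.18). In HCC827 it was at 0.07 ± 0.07, but passed as lower with the mean of its probe sets (-0.17).

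Among the membrane, cofactor and lipid-handling proteins none fell: 4 of 7 rose in PC9 and 5 of 7 in HCC827, with medians of 0.43 and 0.35. The share called was 57.1% and 71.4%, against 64.7% and 51.8% of all genes. GRN, the precursor of granulins that lysosomes take up, read 192, 153 and 175 in DMSO and 385, 466 and 400.4 in erlotinib in PC9. HCC827 signals of GRN were 169, 176 and 151 in DMSO and 282, 326 and 305 in erlotinib. Every erlotinib array exceeded every DMSO array, and GRN rose by 1.23 ± 0.10 and 0.85 ± 0.10 (limma, adjusted p = 1.56e-08 and 2.56e-06). Its 2 other probe sets gave 1.22 and 1.21 in PC9, and 0.83 and 0.73 in HCC827. PSAP, the precursor of the saposins that help degrade sphingolipids, read 2249, 2096 and 2169 in DMSO and 2968, 3365 and 2969 in erlotinib in PC9. In HCC827 PSAP read 1994, 2052 and 1988 in DMSO and 2467, 2696 and 2626 in erlotinib. Treatments were apart in both, with rises of 0.51 ± 0.05 and 0.37 ± 0.05 (limma, adjusted p = 3.93e-07 and 2.97e-05).

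LAMP2, a coat protein of the lysosomal membrane that also serves chaperone-mediated autophagy, read 1081, 1059 and 1073 in DMSO and 1601, 1749 and 1606 in erlotinib in PC9. Its HCC827 signals were 619.8, 647 and 593 in DMSO and 991, 975 and 947 in erlotinib. No arrays overlapped, and the rises of 0.62 ± 0.05 and 0.64 ± 0.05 were much alike (limma, adjusted p = 4.6e-08 and 6.82e-08). LAMP1, its close relative, rose by 0.35 ± 0.06 in HCC827 and was at 0.05 ± 0.06 in PC9, where it passed as higher with quantile normalization (0.11) and the mean of all probe sets (0.13). MCOLN1, a calcium channel of the lysosomal membrane, rose by 0.43 ± 0.13 and 0.35 ± 0.13. The PC9 call was lost with quantile normalization (0.19), with median centring (0.28) and without PC9 erlotinib replicate 2 (log2 0.32), and the HCC827 call when any of HCC827 DMSO replicate 1 or 3 or HCC827 erlotinib replicate 1 or 2 was left out alone (log2 0.28 to 0.36). The HCC827 call was also lost with quantile normalization (0.27), median centring (0.27), the actin covariate (0.39) and 1 in place of 8 (0.39). NPC1 and NPC2, which export cholesterol from the lysosome, did not pass: NPC1 was at 0.05 ± 0.09 and 0.17 ± 0.09, NPC2 at 0.01 ± 0.04 and -0.02 ± 0.04. NPC1 passed as higher in HCC827 without HCC827 erlotinib replicate 1 (0.26).

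**Figure D2:**
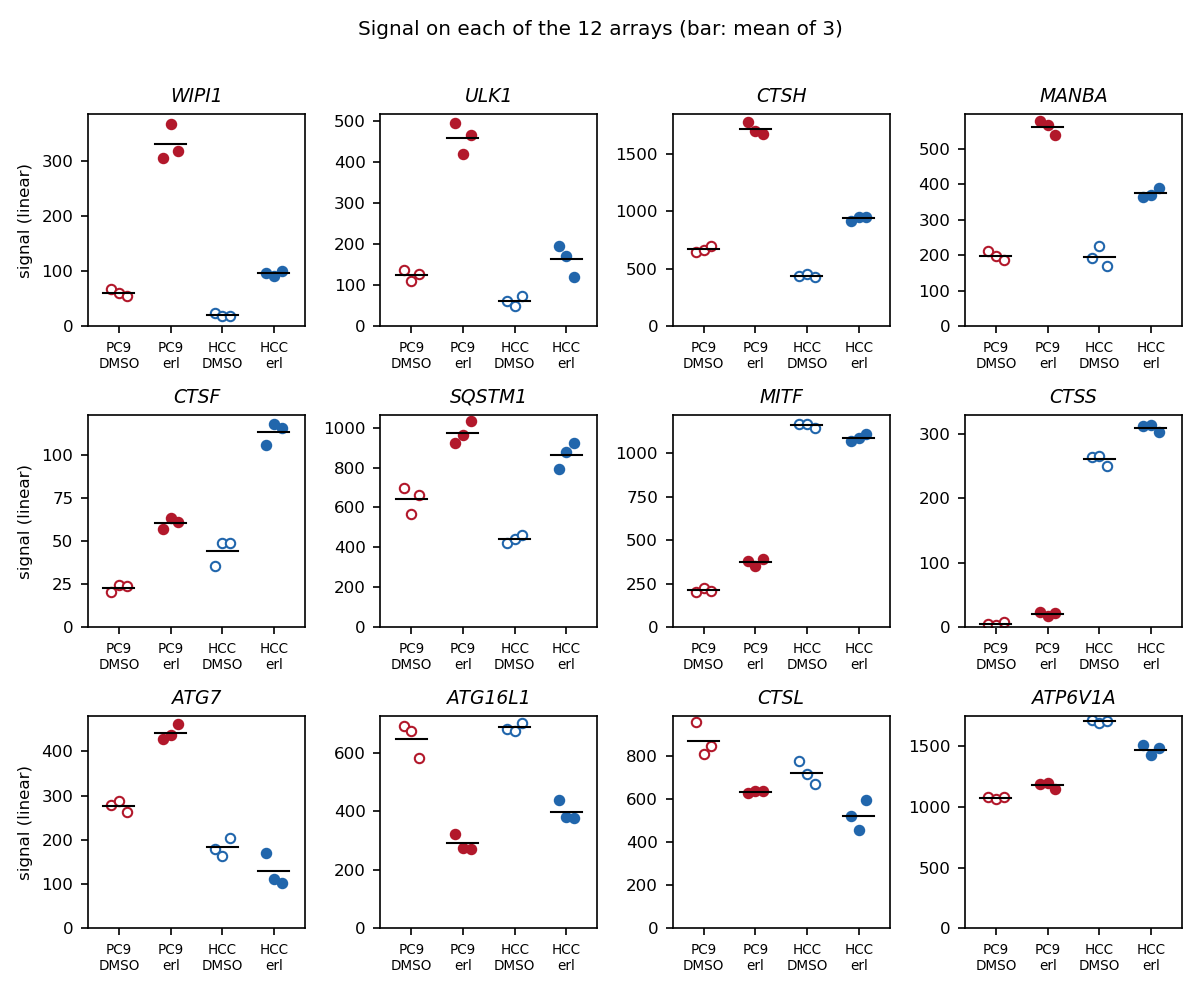
Signal on each array (y axis, linear, from 0, own scale per gene) for 12 members; open points are DMSO, filled points erlotinib, red PC9, blue HCC827, and the bar is the mean of 3 arrays. WIPI1, ULK1, CTSH, MANBA, CTSF and SQSTM1 are higher with erlotinib in both lines, ATG16L1 and CTSL lower in both, and MITF and CTSS differ more between the lines than between the treatments.

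The proton pump had a smaller median change than the hydrolases in each line. Of its 6 subunits, 4 rose and 1 fell in PC9, with a median of 0.20, and 3 rose and 1 fell in HCC827, with a median of 0.11. The share called was 83.3% and 66.7%, against 64.7% and 51.8% of all genes. The changes lay between -0.25 and 0.65 in PC9 and between -0.21 and 0.45 in HCC827. ATP6V0A1, a membrane subunit that steers the pump to its organelle, read 70.2, 75.6 and 71.1 in DMSO and 119, 119 and 115 in erlotinib in PC9. In HCC827 it read 78.0, 77.0 and 77.2 in DMSO and 79.6, 102 and 99.4 in erlotinib. Its PC9 arrays were well apart, whereas HCC827 erlotinib replicate 1 was barely above the DMSO arrays. It rose by 0.65 ± 0.10 in PC9 (limma, adjusted p = 1.88e-05) and by 0.24 ± 0.10 in HCC827 (adjusted p = 0.0451). The HCC827 call was lost with the actin covariate (0.08), the mean of all probe sets (0.03), quantile normalization (0.17), median centring (0.17) and when any single array other than PC9 DMSO replicate 1 or 2 or HCC827 erlotinib replicate 1 was left out (log2 0.18 to 0.25).

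ATP6V1A, the catalytic subunit, rose by 0.13 ± 0.05 in PC9, from 1082, 1068 and 1079.7 to 1189, 1199.9 and 1150.4, and fell by 0.21 ± 0.05 in HCC827, from 1713, 1693 and 1708 to 1509, 1427 and 1482. Neither line's treatments overlapped. The PC9 rise was small: median centring turned it to -0.02, and it was lost with the mean of all probe sets (0.14) and without PC9 erlotinib replicate 2 (log2 0.12). ATP6V1B2, the other subunit of the catalytic head, fell by 0.25 ± 0.06 in PC9 and was at -0.02 ± 0.06 in HCC827. ATP6V0D1, of the membrane part, rose by 0.28 ± 0.09 in PC9, lost with median centring (0.14) and when any of PC9 DMSO replicate 2 or PC9 erlotinib replicate 2 was left out alone (log2 0.17 to 0.23). In HCC827 it was at -0.20 ± 0.09 and passed as lower with median centring (-0.28), in a fit of the HCC827 arrays alone (-0.20) and when any of PC9 DMSO replicate 1 or PC9 erlotinib replicate 2 was left out alone (log2 -0.20). ATP6V1H, a regulatory subunit, rose by 0.45 ± 0.08 in HCC827 on its brightest probe set, a call lost with the mean of its 3 probe sets (0.15), and was at 0.11 ± 0.08 in PC9. ATP6AP1, an accessory protein of pump assembly, rose by 0.28 ± 0.09 and 0.39 ± 0.09. Its PC9 call was lost with median centring (0.13) and without PC9 DMSO replicate 2 (log2 0.20), and its HCC827 call with the actin covariate (0.33).

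The autophagosome genes rose in most of their steps. Of 19, 13 rose and 2 fell in PC9, with a median of 0.47, and 13 rose and 3 fell in HCC827, with a median of 0.36. The share called was 78.9% and 84.2%, against 64.7% and 51.8% of all genes. The 3 members of the initiation kinase complex, the 4 that supply membrane and the 4 of the ATG8 family with SQSTM1 all rose in both lines as deposited. Under median centring the PC9 calls of RB1CC1 (0.15), WIPI2 (0.13) and GABARAPL2 (0.08) were lost. Of the 5 conjugation genes, 1 rose and 1 fell in PC9, and none rose and 3 fell in HCC827.

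ULK1, the kinase that starts autophagy when nutrients are short, read 138, 109.6 and 127 in DMSO and 495, 421 and 466 in erlotinib in PC9. Its HCC827 arrays read 60.2, 48.0 and 73.7 in DMSO and 196, 172 and 121 in erlotinib. The treatments were clearly apart in both, although HCC827 erlotinib replicate 3 was lower than the other two. ULK1 rose by 1.82 ± 0.16 in PC9 (limma, adjusted p = 3.3e-08) and 1.31 ± 0.16 in HCC827 (adjusted p = 3.23e-06). RB1CC1, the scaffold of that complex also called FIP200, read 454, 497 and 405 in DMSO and 564, 574 and 523 in erlotinib in PC9. In HCC827 RB1CC1 gave 519, 529 and 559.7 in DMSO and 817, 761 and 754 in erlotinib. All erlotinib arrays were above all DMSO arrays, with a wider gap in HCC827, and the rise was 0.29 ± 0.07 and 0.53 ± 0.07 (limma, adjusted p = 0.00258 and 1.94e-05). ATG13, which links the kinase to RB1CC1, rose by 0.48 ± 0.08 and 0.39 ± 0.08. Its HCC827 call was lost with the actin covariate (0.29) and with the mean of its probe sets (0.20).

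The lipid kinase complex makes the phosphoinositide on which the membrane cup forms, and its members did not move together. ATG14, which brings the complex to autophagy sites, read 417, 401 and 394 in DMSO and 729, 687 and 646 in erlotinib in PC9. HCC827 gave 440.5, 401 and 440.1 in DMSO and 757, 749 and 656 in erlotinib for it. DMSO levels and erlotinib levels were nearly the same in the 2 lines, and ATG14 rose by 0.75 ± 0.07 and 0.74 ± 0.07 (limma, adjusted p = 1.31e-07 and 3.36e-07). BECN1, the beclin scaffold, did not pass in either line, at 0.15 ± 0.06 (limma, adjusted p = 0.0525) and -0.07 ± 0.06. It passed as higher in PC9 with quantile normalization (0.19), the mean of all probe sets (0.15) and when any of PC9 DMSO replicate 2 or PC9 erlotinib replicate 3 was left out alone (log2 0.20). UVRAG, which competes with ATG14 for the complex, fell by 0.24 ± 0.10 in PC9 (limma, adjusted p = 0.0494) and rose by 0.33 ± 0.10 in HCC827 (adjusted p = 0.0131). The PC9 fall was at the edge of the threshold and was lost when any of PC9 DMSO replicate 1 or 3, PC9 erlotinib replicate 1 or 3, HCC827 DMSO replicate 3 or HCC827 erlotinib replicate 3 was left out alone (log2 -0.25 to -0.19), and the HCC827 rise, whose arrays overlapped, when any of HCC827 DMSO replicate 1 or HCC827 erlotinib replicate 2 was left out alone (log2 0.24 to 0.25). The HCC827 rise was also lost with the actin covariate (0.20), without erlotinib replicates 2 and 3 (0.14) and with median centring (0.25).

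WIPI1, which reads that phosphoinositide and marks forming autophagosomes, had the largest change of any member in both lines. It read 67.2, 60.3 and 54.0 in DMSO and 305, 367 and 317 in erlotinib in PC9. HCC827 arrays gave 24.4, 18.7 and 17.6 in DMSO and 96.6, 91.0 and 99.8 in erlotinib. Every erlotinib array was far above the DMSO arrays of its line. WIPI1 rose by 2.30 ± 0.11 in PC9 (limma, adjusted p = 3.75e-11) and 1.89 ± 0.11 in HCC827 (adjusted p = 1.09e-09), and its second probe set gave 2.23 and 1.83. WIPI2, its relative that recruits the conjugation machinery, rose by 0.28 ± 0.07 and 0.40 ± 0.07.

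ATG2A, which transfers lipid into the growing membrane, read 22.5, 14.2 and 15.7 in DMSO and 26.8, 29.4 and 37.4 in erlotinib in PC9. Its HCC827 signals were 48.3, 42.2 and 37.7 in DMSO and 55.8, 61.9 and 76.0 in erlotinib. Erlotinib arrays were above DMSO arrays with small gaps at low signals, and ATG2A rose by 0.63 ± 0.15 and 0.51 ± 0.15 (limma, adjusted p = 0.00149 and 0.00871). ATG9A, a lipid scramblase on the vesicles that seed the cup, read 122, 110.3 and 117 in DMSO and 196, 145 and 168 in erlotinib in PC9. For ATG9A in HCC827 the signals were 133, 142 and 143 in DMSO and 169.7, 195 and 172 in erlotinib. They did not overlap, and ATG9A rose by 0.51 ± 0.10 and 0.34 ± 0.10 (limma, adjusted p = 0.000362 and 0.00975). Both HCC827 calls were lost with the actin covariate (0.41 for ATG2A and 0.22 for ATG9A). The ATG2A call was also lost without HCC827 erlotinib replicate 3 (log2 0.40) and the ATG9A call without HCC827 erlotinib replicate 2 (log2 0.28).

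SQSTM1, the receptor p62 that carries ubiquitin-marked cargo, read 698, 569 and 661 in DMSO and 924, 962 and 1032 in erlotinib in PC9. In HCC827 SQSTM1 was at 423, 444 and 463 in DMSO and 794, 877 and 922 in erlotinib. All erlotinib arrays were the higher ones, and it rose by 0.59 ± 0.08 and 0.95 ± 0.08 (limma, adjusted p = 5.76e-06 and 5.57e-08). MAP1LC3B, the ATG8 protein used most often to count autophagosomes, read 935, 966 and 943 in DMSO and 1385, 1213 and 1494 in erlotinib in PC9. HCC827 arrays read 1132, 1144 and 1139 in DMSO and 1564, 1489.9 and 1543 in erlotinib for it. Treatments were apart in both lines, and the rise was 0.52 ± 0.06 and 0.43 ± 0.06 (limma, adjusted p = 2.23e-06 and 3.35e-05). Its relatives GABARAP and GABARAPL2 rose too, GABARAP by 0.47 ± 0.05 and 0.36 ± 0.05, and GABARAPL2 by 0.23 ± 0.05 and 0.25 ± 0.05. The HCC827 call of GABARAPL2 was lost with the actin covariate (0.21).

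In the conjugation machinery, ATG16L1 and ATG7 changed most. ATG16L1, which places the ATG12-ATG5 ligase on the membrane, read 692, 673 and 581 in DMSO and 323, 276 and 272 in erlotinib in PC9. Its HCC827 arrays were 682, 676 and 703 in DMSO and 440.3, 380.0 and 377 in erlotinib. All erlotinib arrays lay far below all DMSO arrays in both lines, and ATG16L1 fell by 1.14 ± 0.09 and 0.77 ± 0.09 on the log2 scale (limma, adjusted p = 7.34e-09 and 1.5e-06). ATG4A, a protease that trims ATG8 proteins, fell by 0.23 ± 0.07 in HCC827 and was at 0.11 ± 0.07 in PC9. The fall was lost with the actin covariate (-0.26) and when any of HCC827 DMSO replicate 1 or 2 was left out alone (log2 -0.21 to -0.20). ATG5, at -0.13 ± 0.08 and 0.14 ± 0.08, and ATG12, at -0.03 ± 0.07 and -0.01 ± 0.07, did not pass in either line. With median centring both passed as lower in PC9 (-0.28 and -0.17), and ATG5 passed as higher in HCC827 without HCC827 erlotinib replicate 1 (0.23).

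ATG7, the enzyme that activates ATG8 proteins and ATG12, gave values that depended on the probe set. Its brightest probe set read 278, 288 and 263 in DMSO and 428, 438 and 461 in erlotinib in PC9. HCC827 gave 179.9, 165 and 205 in DMSO and 171, 112 and 104 in erlotinib. PC9 erlotinib arrays were all higher, while in HCC827 erlotinib replicate 1 lay among the DMSO arrays and replicates 2 and 3 below them. That probe set rose by 0.66 ± 0.13 in PC9 (limma, adjusted p = 0.0004) and fell by 0.51 ± 0.13 in HCC827 (adjusted p = 0.00479). In PC9 another pair of ATG7 probe sets passed as lower (-0.51 and -0.50) and the mean of all was -0.15. In HCC827 the value was -0.10 with the actin covariate and -0.09 without erlotinib replicates 2 and 3, and no longer passed.

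Of the 48 members, 26 had other probe sets, 55 in all, and 44 of these, of 24 members, were above the filter. Of the 44, 21 passed in PC9 in the direction of a brightest probe set that itself passed, and 2 against it, both of ATG7. In HCC827, 20 passed in its direction and 0 against it. The 44 also include probe sets of members whose brightest probe set did not pass. Where the brightest did not pass, 6 others did in PC9 (of ATG12, ATG5, BECN1, CTSB and LAMP1) and 6 in HCC827 (of ATG12, ATG5, BECN1, GUSB and MITF). LAMP2 gave 1.64 in PC9 on 1 probe set, 0.48 on another and 0.09, which did not pass, on one more. For SQSTM1 in PC9 they ran from -0.22, which did not pass, to 1.19. ATG12 had 1 probe set lower and 1 higher in both lines (-0.28 and 0.23 in PC9, -0.25 and 0.27 in HCC827), and ATG5 had 1 that rose in both (0.39 and 0.22).

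**Figure D3:**
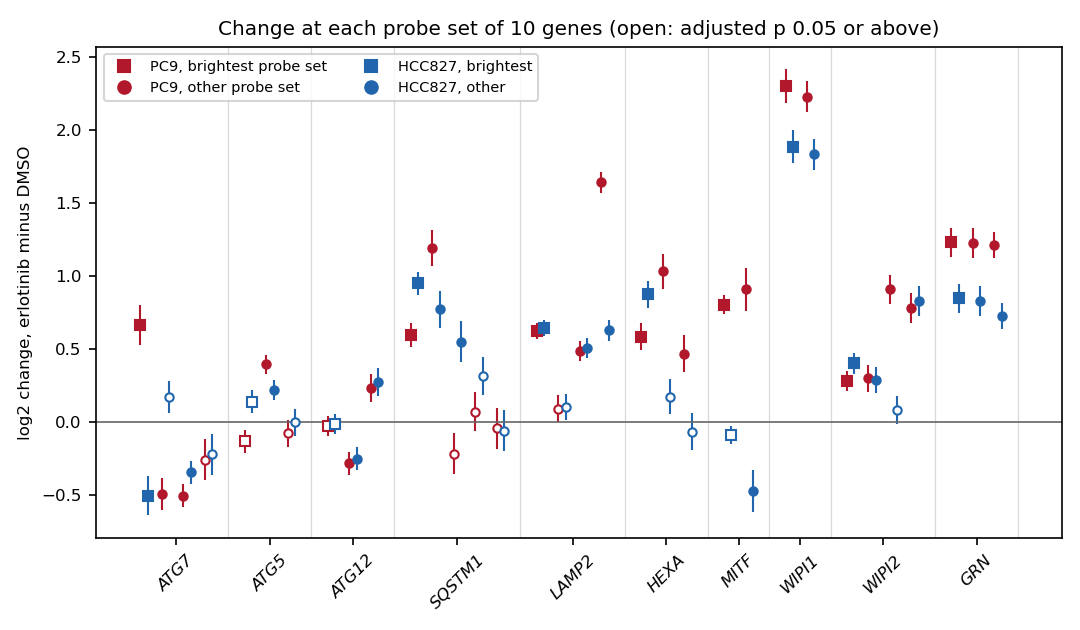
Log2 change (y axis, erlotinib minus DMSO) at every probe set of 10 members; squares are the brightest probe set, circles the others, red PC9, blue HCC827, bars standard errors, and open symbols have an adjusted p of 0.05 or above. WIPI1 and GRN agree across probe sets; in PC9, ATG7 is above 0 on the brightest probe set only.

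The size of the response differed between the lines for 23 of the 48 members (47.9%, limma test of the PC9 change minus the HCC827 change), against 45.2% of all genes. In 12 the difference was above 0 and in 11 below, as in 21.3% and 24% of all genes. With median centring it was above 0 in 7 and below in 14. All genes moved the same way under that setting, to 2185 above 0 and 3550 below. With the actin covariate 14 members passed. Among all genes 2258 then passed above 0 and 2215 below, against 2799 and 3155 without the covariate. Among hydrolases 9 of 14 differed, among proton pump subunits 5 of 6, among autophagosome genes 6 of 19. The largest differences above 0 were ATG7 on its brightest probe set (1.17 ± 0.19, adjusted p = 0.000118), where the mean of all probe sets gave 0.08, MITF (0.90 ± 0.09, adjusted p = 5.07e-07), CTSS (0.89 ± 0.16, adjusted p = 0.00037, but at least 0.22 with its PC9 DMSO signals at the filter value), CTSK (0.79 ± 0.17, adjusted p = 0.00151) and MANBA (0.54 ± 0.13, adjusted p = 0.003). Below 0 the largest were UVRAG (-0.57 ± 0.14, adjusted p = 0.0045) and CTSZ (-0.54 ± 0.14, adjusted p = 0.00618). Both were lost without HCC827 erlotinib replicates 2 and 3 (-0.38 and -0.47). For CTSF, NEU1, LAMP2, ATG14 and CTSL the responses of the lines did not differ at the threshold, with differences of -0.07 ± 0.16, -0.11 ± 0.13, -0.02 ± 0.08, 0.01 ± 0.10 and 0.01 ± 0.13. With the mean of all probe sets the LAMP2 difference was 0.24 and passed (limma, adjusted p = 0.0161).

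The levels from which the lines started also differed, at about the rate of all genes. In DMSO, 36 of 48 members differed between HCC827 and PC9 (75.0%), 18 higher and 18 lower in HCC827, against 76.2% of all genes, 39.4% higher and 36.8% lower. The arrays of the lines did not overlap for 21 members on the higher side (40.7% of all genes) and for 20 on the lower (38.0%). CTSS was 4.34 ± 0.12 higher in HCC827 on the log2 scale (at least 3.68 with its PC9 signals at the filter value), the largest gap of any member, followed by MITF (2.42 ± 0.06), NPC1 (1.41 ± 0.09) and CTSB (1.26 ± 0.05). CTSZ (-1.37 ± 0.10), WIPI1 (-1.28 ± 0.11) and ULK1 (-0.96 ± 0.16) were lower in HCC827. Thus WIPI1 and ULK1 rose in both lines from unequal levels, and HCC827 with erlotinib, at a mean of 95.8 for WIPI1, remained below PC9 with erlotinib, at 329.6.

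Other genes of the same pathways, 121 on 5 lists, were examined beside the members, and 105 of them were tested. In PC9, 55 rose and 10 fell, with a median of 0.26, and in HCC827, 57 rose and 9 fell, with a median of 0.24; 44 rose in both lines. They passed at 61.9% in PC9 (52.4% higher) and 62.9% in HCC827 (54.3% higher), against the 64.7% (36.4% higher) and 51.8% (32.3% higher) of all genes. Among 25 other hydrolases and activators, 16 rose and 5 fell in PC9 (median 0.61) and 16 rose and 2 fell in HCC827 (median 0.49). Their share called was 84% in PC9 and 72% in HCC827. CTSO, a cysteine protease, read 3.3, 7.2 and 5.1 in DMSO and 165, 134 and 143 in erlotinib in PC9; in HCC827 it read 111, 102 and 115 in DMSO and 335, 289 and 277 in erlotinib. It was higher on every erlotinib array and rose by 1.39 ± 0.12 in HCC827. Its PC9 DMSO arrays were under the filter, and with them at the filter value its PC9 rise was at least 2.89. ARSA, the arylsulfatase lost in metachromatic leukodystrophy, read 2.1, 1.6 and 8.4 in DMSO and 46.8, 53.5 and 39.4 in erlotinib in PC9, a rise of at least 1.37 by the same bound. In HCC827 the rise of ARSA was at least 0.74 by that bound. GAA, the acid glucosidase that digests glycogen, rose by 1.16 ± 0.10 in PC9 and by 1.11 ± 0.10 in HCC827. CTSC, which activates other proteases, fell by 0.71 ± 0.09 and 0.31 ± 0.09. CTSV fell by 0.47 ± 0.08 in PC9. The sulfatase ARSB fell by 0.52 ± 0.18 in HCC827 and by 0.51 ± 0.18 in PC9, where its arrays overlapped. LGMN, the legumain protease, and LIPA, the acid lipase, were named after their values were seen, as the only pair of these lists that passed in opposite directions: LGMN was at -0.31 ± 0.09 and 0.49 ± 0.09, LIPA at -0.34 ± 0.05 and 0.29 ± 0.05.

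Other membrane and sorting proteins rose in 7 of 15 cases in PC9 and 11 of 15 in HCC827, with 1 fall in each (medians 0.14 and 0.36). The share called was 53.3% in PC9 and 80% in HCC827, against 64.7% and 51.8% of all genes. The sialic acid exporter SLC17A5 rose by 0.50 ± 0.12 in PC9 and 1.41 ± 0.12 in HCC827. MFSD8 rose by 0.96 ± 0.08 in PC9 and 0.20 ± 0.08 in HCC827, and LAMP3 by 0.76 ± 0.11 in HCC827. LAPTM4B fell by 0.18 ± 0.05 in PC9, and M6PR, a receptor that sorts hydrolases to lysosomes, fell by 0.43 ± 0.11 in HCC827. The 12 other proton pump subunits had few changes: 3 rose and 1 fell in PC9, 4 rose and 0 fell in HCC827, with medians of 0.08 and 0.11. That is 33.3% in each line, under the share of all genes. The largest were ATP6V1E1 (0.33 ± 0.06), ATP6V1G1 (0.30 ± 0.07) and ATP6V0B (-0.33 ± 0.08) in PC9, and ATP6V1E2 (0.47 ± 0.09) and ATP6AP2 (0.39 ± 0.06) in HCC827. ATP6V1E1 also rose in HCC827 (0.24 ± 0.06) and ATP6AP2 in PC9 (0.26 ± 0.06).

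Other autophagy genes held the largest rises of all lists. Of 33 tested, 21 rose and 2 fell in PC9 (median 0.35, or 0.28 with genes under the filter at its value) and 19 rose and 4 fell in HCC827 (median 0.24). The share called was 69.7% in each line, against 64.7% of all genes in PC9 and 51.8% in HCC827. The share higher was 63.6% and 57.6%, against 36.4% and 32.3%. TP53INP1, a protein of stress-induced autophagy, read 9.8, 20.6 and 18.3 in DMSO and 644, 430.3 and 471 in erlotinib in PC9. HCC827 gave 179.9, 172 and 197 in DMSO and 1294, 1282 and 1350.4 in erlotinib. The rises were 4.44 ± 0.15 and 2.79 ± 0.15, with no overlap. GABARAPL1, the ATG8 protein closest to GABARAP, read 71.9, 74.6 and 72.6 in DMSO and 1218, 911 and 778 in erlotinib in PC9; in HCC827 it read 72.7, 86.0 and 58.8 in DMSO and 379, 385 and 393 in erlotinib. DMSO arrays of the lines were alike, and PC9 rose further, by 3.57 ± 0.14 against 2.30 ± 0.14 (difference 1.26 ± 0.19, limma, adjusted p = 6.26e-05). MAP1LC3C rose by 2.40 ± 0.17 in HCC827, and in PC9, where it counts among the 21, both group means were under the filter. ATG3, the enzyme that passes ATG8 proteins to lipid after ATG7, fell by 0.41 ± 0.06 and 0.45 ± 0.06. RUBCN, an inhibitor of the lipid kinase complex, fell by 0.42 ± 0.09 in HCC827.

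**Figure D4:**
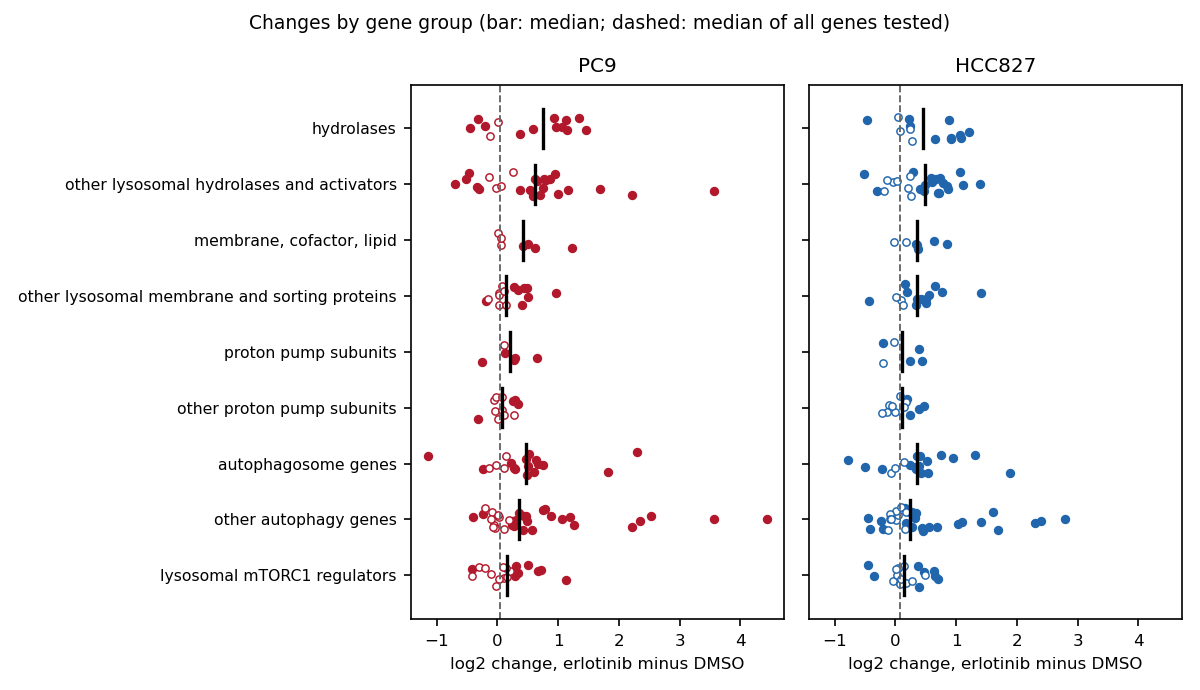
Log2 change (x axis, erlotinib minus DMSO) of every tested gene by group, with PC9 left and HCC827 right; filled points passed at an adjusted p under 0.05, black bars are group medians, and the dashed line is the median of all 13165 genes. Medians of the hydrolase groups lie at 0.75 and 0.61 in PC9 and 0.46 and 0.49 in HCC827, and those of the proton pump groups at 0.20, 0.08, 0.11 and 0.11.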

How the data were processed

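The members and the gene lists were chosen with earlier results of these data known. Per the labels' protocols, total RNA came from an RNeasy Plus preparation, and NuGEN Ovation chemistry amplified it before biotin labelling. The deposited values are linear signal intensities per probe set, made with MAS5 (version not given in the sources used here) per the submitters' processing notes; the values show that every array was scaled to the same 2% trimmed mean of about 150. No detection calls were used, so the number of arrays and the signal over background limit the precision.

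Of 54675 probe sets, 41091 are paired with 1 symbol by the platform annotation, 1801 with several and 11721 with none; 62 are controls. For each gene the brightest probe set with 1 symbol was taken. Signals were analysed as log2(signal + 8) with limma 3.58.1 in R 4.3.3, with 1 mean per group, all 12 arrays sharing the spread, moderated variances with an intensity trend and Benjamini-Hochberg adjustment over 13165 genes. The contrasts were erlotinib minus DMSO in each line, the PC9 change minus the HCC827 change, and HCC827 minus PC9 in DMSO. Groups of genes are described by counts and medians and were not tested. Values on every array are given for members that passed in either line with a log2 change of at least 0.5 in size and for the MiT/TFE factors. Of the other lists, up to 2 rises and 2 falls per line with arrays that did not overlap are named, plus GABARAPL1. Where a group's mean was under the filter, its arrays were set to the filter value for a lower bound, a step chosen after the values were seen. Promoters are from RefSeq (GRCh38.p14). The procedure was checked on simulated data. Alternatives were 1 or 32 in place of 8, quantile normalization, median centring, a filter at the 70th percentile (signal 83.7) or none, the mean of all probe sets, no trend, arrays of one line alone, the replicate number as a block, the actin 3'/5' ratio (log2) as a covariate, leaving out HCC827 erlotinib replicates 2 and 3, and leaving out each array in turn.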

Additional observations from a re-analysis of the deposited data

Results flagged for a closer look

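The change with erlotinib differed between PC9 and HCC827 for 23 members by the test of the difference itself (limma, adjusted p under 0.05; 45.2% of all genes passed it). Values are the PC9 change minus the HCC827 change on the log2 scale, and their causes were not tested.

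Above 0 were ATG7 (1.17 ± 0.19, on its brightest probe set only), MITF (0.90 ± 0.09), CTSS (0.89 ± 0.16, at least 0.22 with its PC9 DMSO signals, which were under the filter, at the filter value), CTSK (0.79 ± 0.17), MANBA (0.54 ± 0.13), ATP6V0D1 (0.48 ± 0.13), WIPI1 (0.42 ± 0.16), ATP6V0A1 (0.41 ± 0.14), GRN (0.38 ± 0.14), ATP6V1A (0.34 ± 0.06), ATG4A (0.34 ± 0.10) and CTSH (0.27 ± 0.08). Below 0 were UVRAG (-0.57 ± 0.14), CTSZ (-0.54 ± 0.14), CTSD (-0.37 ± 0.14), ATG16L1 (-0.36 ± 0.12), GLA (-0.36 ± 0.12), SQSTM1 (-0.35 ± 0.11), ATP6V1H (-0.34 ± 0.12), LAMP1 (-0.30 ± 0.08), GUSB (-0.28 ± 0.10), ATP6V1B2 (-0.23 ± 0.08) and CTSB (-0.21 ± 0.07).

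Those of MITF, CTSS, MANBA and ATP6V1A passed under every alternative that tested the difference. That of CTSK did too, except that CTSK, with a highest group mean of 47, was under the stricter filter of 83.7 and not tested there. The other 18 were lost under at least 1. With the mean of all probe sets, dim ones included, those of ATG16L1 (-0.13), SQSTM1 (-0.19), ATP6V1H (-0.03), ATG7 (0.08), GUSB (-0.13) and CTSB (-0.16) no longer passed. Both with the actin covariate and without HCC827 erlotinib replicates 2 and 3, the differences of SQSTM1 (-0.27 and -0.23), LAMP1 (-0.21 and -0.20), UVRAG (-0.45 and -0.38), CTSD (-0.24 and -0.24), GLA (-0.40 and -0.28), GUSB (-0.19 and -0.13), CTSB (-0.15 and -0.15) and WIPI1 (0.35 and 0.40) were lost. ATP6V0D1 (0.38) and GRN (0.38) were lost with the covariate alone of these 2 settings, and ATP6V1B2 (-0.24), ATP6V1H (-0.26) and CTSZ (-0.47) without the replicates alone. Median centring ended those of ATG4A (0.26), ATP6V0A1 (0.33), CTSH (0.20), GRN (0.31) and WIPI1 (0.34). With the constant added to the signals lowered to 1, the WIPI1 difference was 0.23 and no longer passed (limma, adjusted p = 0.343). WIPI1 was dim in HCC827 DMSO, at a mean of 20.2, against 60.5 in PC9 DMSO.

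Several of these no longer passed when a single array was left out. The WIPI1 difference was lost when any single array other than PC9 DMSO replicate 1, PC9 erlotinib replicate 1 or HCC827 DMSO replicate 2 or 3 was left out (log2 0.31 to 0.44), that of GRN when any single array other than PC9 DMSO replicate 1, PC9 erlotinib replicate 1 or 3, HCC827 DMSO replicate 3 or HCC827 erlotinib replicate 2 was left out (log2 0.30 to 0.39), that of CTSD when any single array other than PC9 DMSO replicate 2, HCC827 DMSO replicate 2 or HCC827 erlotinib replicate 1 was left out (log2 -0.38 to -0.29) and that of GUSB when any single array other than PC9 DMSO replicate 2, PC9 erlotinib replicate 2 or HCC827 erlotinib replicate 1 was left out (log2 -0.28 to -0.22). The ATP6V0A1 difference was lost without HCC827 erlotinib replicate 1 (log2 0.30), the ATG16L1 difference when any of PC9 erlotinib replicate 3 or HCC827 erlotinib replicate 1 was left out alone (log2 -0.32 to -0.29), the CTSB difference when any of HCC827 DMSO replicate 3 or HCC827 erlotinib replicate 3 was left out alone (log2 -0.19 to -0.18), the GLA difference without HCC827 DMSO replicate 3 (log2 -0.30), the ATP6V1B2 difference when any of PC9 DMSO replicate 2, PC9 erlotinib replicate 1 or HCC827 DMSO replicate 1 or 3 was left out alone (log2 -0.23 to -0.21) and the ATP6V1H difference when any of PC9 DMSO replicate 1, PC9 erlotinib replicate 1, HCC827 DMSO replicate 1 or HCC827 erlotinib replicate 2 was left out alone (log2 -0.30 to -0.26). ULK1, at 0.51 ± 0.22 (adjusted p = 0.0684), did not pass with all arrays and passed when any of PC9 DMSO replicate 1, HCC827 DMSO replicate 2 or HCC827 erlotinib replicate 1 was left out alone (log2 0.58 to 0.65).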

How the results depend on the processing

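More members were higher than lower in each line under every alternative run. The same held for all genes, except in PC9 with median centring (3567 higher and 5009 lower). Members called numbered 35 to 38 in PC9 and 30 to 38 in HCC827 when 1 array was left out, those whose change differed 18 to 23, and those that differed in DMSO 33 to 37. Among all genes, 4453 to 4778 were then higher and 3423 to 3747 lower in PC9. In HCC827 the ranges for all genes were 3733 to 4388 and 2198 to 2713. With the actin ratio as a covariate 23 were called in HCC827 and 14 differed; without HCC827 erlotinib replicates 2 and 3, a fit that gives the remaining array the spread of the other groups, 24 and 13. The actin ratio moves with the treatment in HCC827, so neither fit separates the 2. The replicate numbers do not pair the samples (correlations of same-numbered deviations from -0.26 to 0.19). With the replicate number as a block, 39 members were called in PC9, 33 in HCC827, 22 differed and 35 differed in DMSO. Among all genes, 4728 were then higher and 3710 lower in PC9, and 4150 and 2511 in HCC827. The median of hydrolases in PC9 was 0.53 with 32 added, 0.71 with quantile normalization, 0.61 with median centring, 0.58 with the stricter filter, 0.71 with the mean of probe sets and 0.70 to 0.79 without 1 array. The median of autophagosome genes in PC9 was 0.35, 0.37, 0.32, 0.38 and 0.32 in that order, and 0.40 to 0.50 without 1 array. The hydrolase median in HCC827 was 0.65 with the stricter filter and 0.29 with the mean of probe sets, and 0.40 to 0.58 without 1 array. The proton pump median was 0.056 in PC9 with median centring and, in HCC827, 0.0094 with the mean of probe sets and 0.012 without erlotinib replicates 2 and 3. Without 1 array it was 0.15 to 0.25 in PC9 and 0.08 to 0.16 in HCC827, and the autophagosome median in HCC827 was 0.31 to 0.41. Signs turned for ATP6V1A in PC9 (-0.016, median centring) and TFE3 in HCC827 (-0.014, actin covariate). With the mean of probe sets they turned for ATG7 in PC9 (-0.15), GUSB in HCC827 (-0.17) and the LAMP2 difference (0.24). The GUSB and LAMP2 values were past the threshold. The cause was not tested. Dim members such as TFEB, and CTSS and CTSK in PC9, lie near the array background.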

Other observations

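Regulators of mTORC1 on the lysosomal surface, which relay nutrient signals to the MiT/TFE factors, were called at a share near or under that of all genes: of 20 tested, 8 rose and 1 fell in PC9 (median log2 change 0.15) and 7 rose and 2 fell in HCC827 (median 0.14). That is 45% in each line, against 64.7% of all genes in PC9 and 51.8% in HCC827, and 40% and 35% higher, against 36.4% and 32.3%. RRAGB, a Rag GTPase that brings mTORC1 to the lysosome, read 37.2, 38.8 and 32.1 in DMSO and 85.1, 99.8 and 80.8 in erlotinib in PC9; in HCC827 it read 17.7, 28.2 and 17.7 in DMSO and 34.2, 43.9 and 34.2 in erlotinib. Its erlotinib arrays were above its DMSO arrays in both lines, with rises of 1.13 ± 0.14 and 0.65 ± 0.14. TSC1, of the complex that restrains mTORC1, rose by 0.71 ± 0.08 and 0.70 ± 0.08. MLST8, an mTORC1 subunit, fell by 0.42 ± 0.10 in PC9. In HCC827, FNIP2, a partner of folliculin, fell by 0.46 ± 0.07 and the mTORC1 inhibitor AKT1S1 by 0.35 ± 0.10. TFEC, the MiT/TFE family member not on the list of 50, was under the filter.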
